A study of Mus musculus with 394 samples.

Results

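*Aldh1a1*, *Aldh1a7*, *Sox6*, *Anxa1* and *Lmo3* are known as markers of ventral-tier dopamine neurons of the substantia nigra pars compacta (SNc), and were taken by gene symbol from tables of gene counts. They are 5 of the 55487 genes in the table of full-length RNA-seq counts and 5 of the 48526 genes in the table of counts of unique molecular identifiers (UMIs), which tag each captured RNA molecule. All mice carried 1 RiboTag allele, which places an HA tag on the ribosomal protein eL22 in cells that express Cre. Cre+ mice were DAT IRES-Cre/wt; RiboTag +/-, so that the dopamine transporter (DAT) locus drove Cre in dopamine neurons, and Cre- mice were DAT wt/wt; RiboTag +/- and made no tagged ribosomes. Both genotypes were of both sexes and aged 10 to 14 months. Ribosomes were collected by anti-HA immunoprecipitation (IP) from the SNc, the ventral tegmental area (VTA) and the substantia nigra pars reticulata (SNr), and a share of each lysate was kept as Input. Cell bodies and dendrites of dopamine neurons lie in the SNc and VTA. The SNr holds many of their dendrites, reaching down from the SNc, and a few of their cell bodies. The study concludes that its SNr IPs mainly reflect these few cells, and that they resemble the ventral tier. The full-length data held 3 IP and 3 Input libraries of each region from Cre+ mice, with 3059148 to 15762443 counts each. The UMI data held 4 Cre+ and 6 Cre- libraries of each region and fraction, with 3606 to 380689 UMIs each, and 42 libraries of midbrain synaptosomes (pinched-off nerve endings and dendritic fragments), with 16533 to 111750 UMIs each. The labels do not name the mouse behind a library, so p-values measure the spread between libraries. By the study's methods the 3 regions were cut from 1 midbrain, so libraries of different regions may share mice, as may full-length and UMI libraries.

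Midbrain dopamine neurons fall into a ventral tier of the SNc, which is the more vulnerable in Parkinson's disease, and a dorsal tier that resembles the VTA. *Aldh1a1* encodes a cytosolic aldehyde dehydrogenase that makes retinoic acid and also oxidizes the toxic aldehyde formed from dopamine. *Aldh1a7* is its close rodent paralog, with weak activity toward retinal. *Sox6* encodes a transcription factor of the SOX family that marks the SNc lineage during development. *Anxa1* encodes annexin A1, which binds phospholipids in the presence of calcium, and *Lmo3* encodes a LIM-only protein that acts as a transcriptional cofactor without binding DNA itself.

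In GRCm38, with the GENCODE vM21 gene models, *Anxa1* (chr19:20373428-20390944, minus strand), *Aldh1a1* (chr19:20492715-20643465, plus strand) and *Aldh1a7* (chr19:20692953-20727562, minus strand) are neighbours on chromosome 19. *Sox6* lies at chr7:115470872-116038796 and *Lmo3* at chr6:138362918-138581968, both on the minus strand. The promoters of the 3 neighbours are shown because the 2 aldehyde dehydrogenase genes face each other with near-identical sequence upstream, while the adjacent *Anxa1* differs. The lines give the 120 bases before the annotated start in RefSeq on GRCm38.p6, at chr19:20601848-20601967 (plus), chr19:20727557-20727676 (minus) and chr19:20390672-20390791 (minus), 5′ to 3′, with CCAAT, the octamer ATGCAAAT and TATAAA in capitals.
Aldh1a1: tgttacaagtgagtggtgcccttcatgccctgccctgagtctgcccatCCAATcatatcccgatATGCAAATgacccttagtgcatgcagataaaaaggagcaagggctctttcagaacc
Aldh1a7: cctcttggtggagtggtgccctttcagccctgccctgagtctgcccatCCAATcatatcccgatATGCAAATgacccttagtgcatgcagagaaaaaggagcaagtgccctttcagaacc
Anxa1: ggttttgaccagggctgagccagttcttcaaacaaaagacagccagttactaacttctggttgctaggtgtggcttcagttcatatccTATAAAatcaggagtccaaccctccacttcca

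Over these 120 bases *Aldh1a1* and *Aldh1a7* were identical at 105 positions (87.5%), and over the 80 bases nearest the start at 77 (96.2%). Counted from 1 at the 5′ end of the 120 bases, the 3 differences within those last 80 bases were T92G, G106T and T109C, with the *Aldh1a1* base first. The longest identical run was 65 bases and held both the CCAAT and the octamer. A second annotated start of *Aldh1a1* matched the *Aldh1a7* promoter at 35 of 120 positions (29.2%), and *Anxa1* had TATAAA and neither of the other letters in this window. Searched on both strands in the same window of 32851 RefSeq mouse promoters, CCAAT was found in 21.3%, the octamer in 0.791% and TATAAA in 6.34%. RefSeq lists 6 starts for *Sox6* and 1 for *Lmo3*.

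The likeness of the paralogs bears on their counts. Of the 75-base stretches of the longest coding transcript of *Aldh1a1*, 2.19% also occurred in *Aldh1a7*, and 2.51% the other way round. Few full-length reads of *Aldh1a1* could thus fit both genes exactly, and the study counted only uniquely mapped reads there. That share is not small beside *Aldh1a7*, which had only 0.83 to 3.12 counts per 100 of *Aldh1a1* in these libraries. For 58 bases, the length of the UMI reads, the shares were 4.87% and 5.57%. These shares are over whole transcripts, while UMI reads come from 3′ ends. The part of *Aldh1a1* reads in the counts of *Aldh1a7* was not tested. No exon of the 5 genes overlapped an exon of another gene in the vM21 models.

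All 5 genes were present in every full-length library, and all but *Sox6* in the SNc were higher in IP than in Input of the same region. *Aldh1a1* stood at 311, 318 and 350 counts per 1000000 counts of the library (CPM) in the SNc Inputs and at 4087, 2827 and 3233 in the SNc IPs. In the VTA it stood at 434, 496 and 415 CPM in the Inputs and at 4729, 4492 and 4555 in the IPs, and in the SNr at 325, 307 and 342 in the Inputs and at 7699, 7510 and 6876 in the IPs. The Inputs of the 3 regions thus differed little beside the IPs, and the SNr IPs lay above all others without overlap. IP over Input was 3.07 ± 0.15 (log2 fold change ± SE) in the SNc, 3.01 ± 0.07 in the VTA and 4.13 ± 0.11 in the SNr, with adjusted p-values of 1.91e-07, 9.72e-14 and 3.39e-08 from edgeR's quasi-likelihood test. In these bulk samples, fewer cells of a type and less RNA per cell cannot be told apart.

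*Aldh1a7* was at 3.01 to 4.67 CPM in the 9 Inputs. Its IP level was 88.2, 47.1 and 54.9 CPM in the SNc, 61.3, 66.1 and 64.9 in the VTA, and 228, 218 and 214.5 in the SNr. SNc and VTA overlapped and the SNr did not. The log2 fold change of IP over Input was 3.64 ± 0.29, 3.62 ± 0.18 and 5.54 ± 0.20 in SNc, VTA and SNr (adjusted p = 4.05e-06, 2.57e-10 and 2.06e-07, edgeR).

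*Anxa1* had a low Input signal of 1.30 to 6.53 CPM, a range that overlapped that of *Aldh1a7*. Its IPs held 103, 62.5 and 81.9 CPM in the SNc, 110.5, 102 and 156 in the VTA, and 243, 230.2 and 235 in the SNr. Its enrichment was 4.94 ± 0.32, 4.44 ± 0.20 and 5.46 ± 0.30 on the log2 scale (adjusted p = 1.25e-06, 6.83e-11 and 1.42e-06, edgeR). The Inputs gave only 11 to 75 *Anxa1* counts each, and 11 to 73 of *Aldh1a7*, which limits the precision of the ratios of both genes.

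*Lmo3* and *Sox6* were enriched far less. *Lmo3* was at 24.9, 31.1 and 33.9 CPM in the SNc Inputs, 41.2, 28.5 and 30.0 in the VTA Inputs and 48.1, 54.5 and 48.0 in the SNr Inputs. Its IPs held 129, 92.8 and 89.0 CPM in the SNc, 140, 140 and 169 in the VTA, and 175, 201 and 178 in the SNr. IP exceeded Input in every region without overlap, by 1.49 ± 0.19, 1.88 ± 0.13 and 1.51 ± 0.14 (adjusted p = 0.000103, 1.30e-08 and 3.03e-05, edgeR).

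*Sox6* was at 31.2, 35.1 and 35.2 CPM in the SNc Inputs, 29.4, 35.2 and 33.4 in the VTA Inputs and 42.4, 37.9 and 38 in the SNr Inputs. Its IPs held 84.8, 38.7 and 71.8 CPM in the SNc, 58.5, 61.2 and 57.7 in the VTA, and 120, 141 and 102 in the SNr. The second SNc IP lay near the Input level, below all other IPs. The enrichment was 0.65 ± 0.25 in the SNc (adjusted p = 0.0633), 0.49 ± 0.13 in the VTA (0.00472) and 1.25 ± 0.17 in the SNr (0.000353, edgeR). The SNc value passed without the second SNc IP (0.93, adjusted p = 0.00177), with DESeq2's Wald test (0.64, 0.0438) and when genes of low count were kept (0.64, 0.00425). When all 18 libraries shared 1 estimate of the spread, the SNc value passed (0.65, adjusted p = 0.0184) and the VTA value missed the threshold (0.53, 0.0549).

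In all, 4 of the 5 genes were called higher in IP than Input in the SNc, 5 in the VTA and 5 in the SNr. Of all genes tested, 37.3%, 49.1% and 30.6% were called in either direction in the 3 regions, so a call as such was common, and the size of the fold sets *Aldh1a1*, *Aldh1a7* and *Anxa1* apart from *Lmo3* and *Sox6*. The 8 dopaminergic core genes (*Th*, *Slc6a3*, *Ddc*, *Slc18a2*, *Pitx3*, *En1*, *Ret*, *Gch1*) were all higher in IP, with medians of 3.64, 3.16 and 5.10 against 0.02, -0.01 and 0.02 over all genes.

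**Figure D1:**
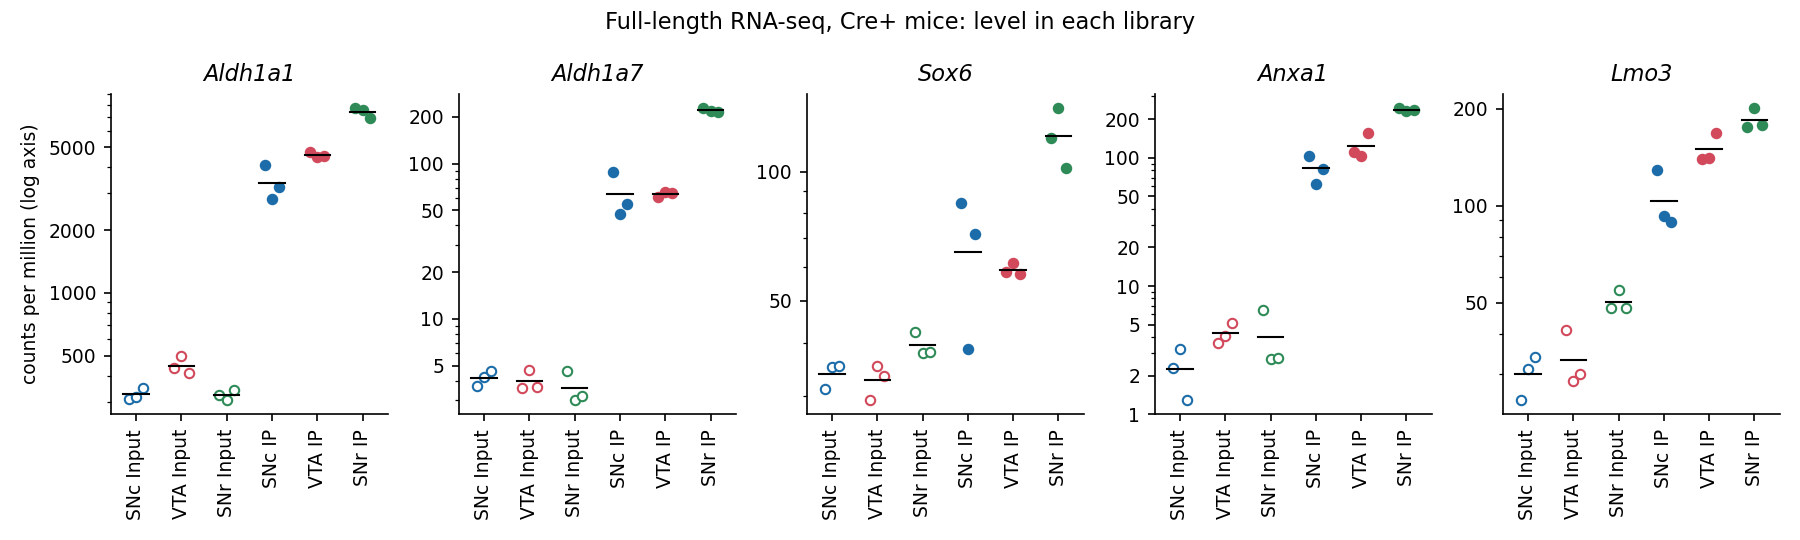
CPM (log axis) of each gene in each full-length library of Cre+ mice, with open points for Inputs, filled points for IPs and a line at the mean of the 3 libraries. In *Aldh1a1*, *Aldh1a7* and *Anxa1* every IP lies far above every Input, the *Sox6* IP of the second SNc library (38.7 CPM) sits among the Inputs, and the SNr IPs are the highest in all 5 panels.

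Per kilobase of exon, on the RPKM scale, *Aldh1a1* was the most abundant member in the IPs of every region, at 685 ± 130 (SD, n = 3) in the SNc, 930.1 ± 24.9 in the VTA and 1491 ± 87.3 in the SNr. *Sox6* was the least abundant, at 4.39 ± 1.6, 3.99 ± 0.122 and 8.15 ± 1.31. In the SNr the order was *Aldh1a7* (107 ± 3.43), *Anxa1* (81.2 ± 2.29) and *Lmo3* (36.0 ± 2.75) between them. In the SNc *Aldh1a7* (30.7 ± 10.6), *Anxa1* (28.3 ± 6.95) and *Lmo3* (20.2 ± 4.26) lay within their spread of each other, as did *Aldh1a7* (31 ± 1.19) and *Lmo3* (29.1 ± 3.21) in the VTA, where *Anxa1* was at 42.3 ± 9.97. The lengths are of all annotated exons of a gene merged, such as 14832 bases for *Sox6* and 2066 for *Aldh1a7*. The order of the scarcer genes rests on that choice, and in CPM *Sox6* and *Aldh1a7* overlapped in the SNc IPs.

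The SNc IPs were not the highest in these ventral-tier SNc markers. The study describes the few dopamine cell bodies of the SNr as ventral-tier-like, and their part in the regional order was not tested here. All 5 genes were highest in the SNr IP, and none was called lower in VTA than in SNc. SNr over SNc, the log2 fold change was 1.77 ± 0.21 for *Aldh1a7* (3.41-fold, adjusted p = 6.68e-05), 1.49 ± 0.20 for *Anxa1* (2.82-fold, 0.000258) and 1.10 ± 0.13 for *Aldh1a1* (2.15-fold, 7.26e-05, edgeR). *Sox6* and *Lmo3* changed less, by 0.87 ± 0.24 (adjusted p = 0.0431) and 0.81 ± 0.18 (0.0126). All 5 were thus called higher, where 5.1% of the 15321 genes tested were called in either direction and 2.12% were higher. The study had already reported *Aldh1a1*, *Aldh1a7*, *Sox6* and *Anxa1* as more abundant in SNr than SNc IPs of these data. The count is therefore a description and no independent support. The *Sox6* call was lost without the second SNc IP (0.60, adjusted p = 0.199) and without 3 other single libraries, and the *Lmo3* call without any 1 of 3 (0.66 to 0.73).

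Between SNr and VTA IPs, *Aldh1a7* was higher in the SNr by 1.76 ± 0.21 (adjusted p = 2.40e-05), *Sox6* by 1.01 ± 0.24 (0.0108), *Anxa1* by 0.92 ± 0.20 (0.00548) and *Aldh1a1* by 0.66 ± 0.13 (0.00278, edgeR). *Lmo3* had a difference of 0.28 ± 0.18, with a 95% interval of -0.07 to 0.64 and an adjusted p of 0.352. These are 4 of 5 genes, against 10.6% of all genes called. The study's list of SNr genes was kept to those that also differed from the VTA IPs, so this count is a description too. The calls of *Aldh1a1* (0.56, adjusted p = 0.0673) and *Anxa1* (0.72, 0.0694) were lost without the second VTA IP, and that of *Sox6* without the second SNr IP (0.81, 0.0649).

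Between VTA and SNc, 1 of the 5 was called, against 8.54% of all genes. *Aldh1a1* was higher in the VTA by 0.44 ± 0.13 (1.36-fold, adjusted p = 0.0443, edgeR), a call that was lost when any 1 of 5 of the 6 libraries was left out (0.34 to 0.49) and when genes of low count were kept (adjusted p = 0.0502). Without the first SNc IP, *Anxa1* (0.82, adjusted p = 0.01) and *Lmo3* (0.77, 0.00577) were called higher in the VTA as well. DESeq2's Wald test also called both (*Lmo3* 0.54, adjusted p = 0.0364, and *Anxa1* 0.58, 0.0498), 3 of 5 in all, and the fit of all 18 libraries called *Lmo3* (0.49, 0.0409). The 95% intervals were -0.40 to 0.42 for *Aldh1a7*, -0.62 to 0.33 for *Sox6*, 0.18 to 0.97 for *Anxa1* (adjusted p = 0.0858) and 0.18 to 0.88 for *Lmo3* (0.0749), so a lower level of *Anxa1* or *Lmo3* in the VTA was outside the unadjusted interval.

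**Figure D2:**
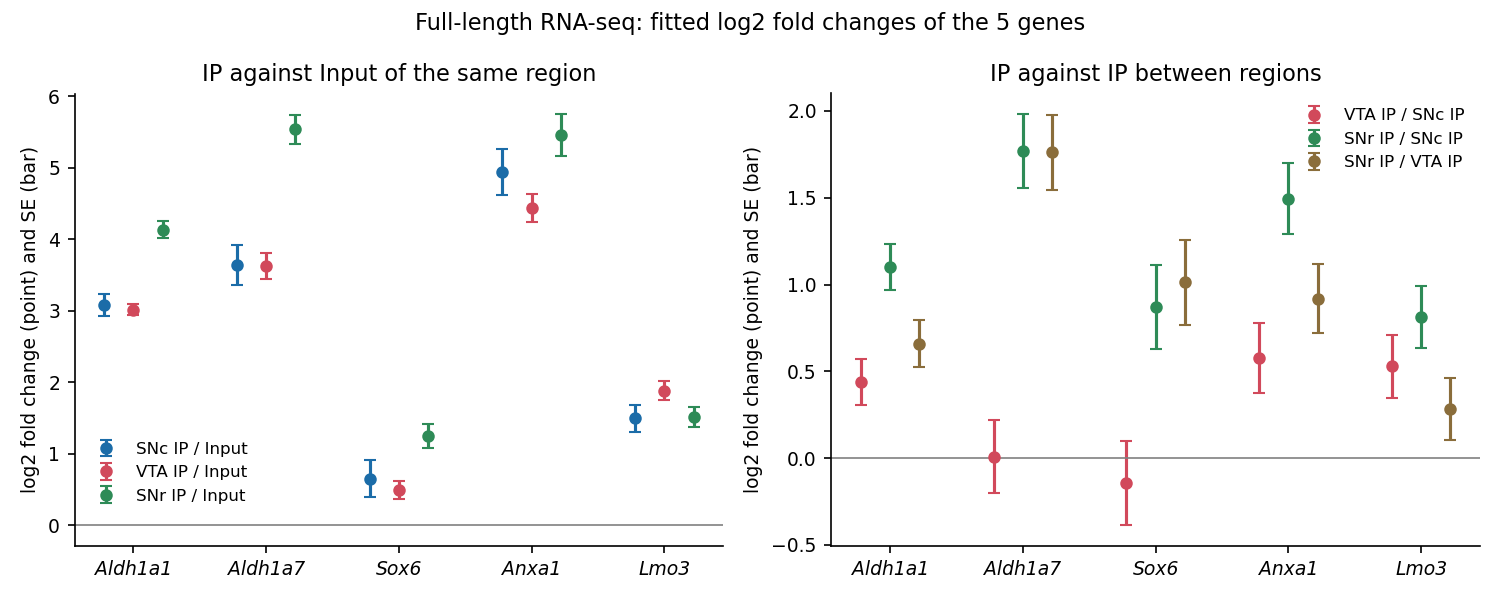
Fitted log2 fold changes (points) and their standard errors (bars) of the 5 genes, for IP against Input within each region (left) and between the IPs of 2 regions (right). The SNr points lie above the SNc and VTA points for *Aldh1a1* (4.13) and *Aldh1a7* (5.54) on the left, and SNr over SNc runs from 0.81 (*Lmo3*) to 1.77 (*Aldh1a7*) on the right.

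The IPs also differed in how much RNA of other cells they held. Astrocyte markers (8 genes) summed to 1856 to 2848 CPM in the SNc IPs, 1100 to 1304 in the VTA IPs and 2817 to 4365 in the SNr IPs, and oligodendrocyte markers (8 genes) to 2174 to 3438, 461 to 708 and 2262 to 2759. Endothelial and mural markers (9 genes) summed to 72.2 to 141, 16.5 to 71.8 and 294 to 362 CPM, GABAergic neuron markers (7 genes) to 1030 to 1559, 280 to 354 and 821 to 1148, and no gene of these 4 lists was at 0 in any region's IPs. Leptomeningeal fibroblast markers (6 genes, *Slc6a13* at 0 in the VTA IPs) summed to 7.41 to 29, 2.11 to 2.29 and 65.0 to 121. In the SNr IPs relative to the SNc IPs, 4 of 8 astrocyte, 2 of 9 endothelial and mural, and 2 of 4 tested leptomeningeal genes were higher. In the Inputs, where *Aldh1a1*, *Aldh1a7* and *Anxa1* were 8-fold or more below the IPs, astrocyte markers were at 4153 to 6930 CPM and oligodendrocyte markers at 5970 to 10570. The part of these cells in the regional differences was not tested.

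Each member was also set against the summed counts of the 8 dopaminergic core genes in the same library. This ratio still depends on RNA of other cells where those cells carry the member, and in SNr Input, which holds RNA of all cells, *Sox6* and *Lmo3* stood at 20.0 and 25.7 per 100 core counts and *Aldh1a1* at 160, all above the SNr IPs. The part of such RNA in the ratios of the IPs was not tested. On this scale SNc and VTA overlapped for *Aldh1a1*, and the SNr lay apart. Per 100 core counts, *Aldh1a1* stood at 35.7, 34.8 and 36.6 in the SNc IPs, at 36.5, 31.9 and 34.3 in the VTA IPs, and at 67.8, 70.1 and 87.2 in the SNr IPs. *Anxa1* stood at 0.899, 0.770 and 0.929 in the SNc, 0.854, 0.728 and 1.18 in the VTA, and 2.15, 2.15 and 2.99 in the SNr. *Aldh1a7* stood at 0.770, 0.580 and 0.623 in the SNc, 0.474, 0.470 and 0.490 in the VTA, and 2.01, 2.04 and 2.72 in the SNr. For all 3 genes the SNr values lay above both other regions, and for *Aldh1a7* the VTA values lay below the SNc.

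*Sox6* stood at 0.740, 0.478 and 0.814 per 100 core counts in the SNc, 0.452, 0.436 and 0.435 in the VTA and 1.06, 1.31 and 1.29 in the SNr, an order of VTA, SNc and SNr without overlap. *Lmo3* stood at 1.12, 1.14 and 1.01 in the SNc, 1.08, 0.998 and 1.27 in the VTA, and 1.55, 1.88 and 2.26 in the SNr. SNr over SNc, the ratio was higher by 3.42-fold for *Aldh1a7*, 2.78-fold for *Anxa1*, 2.09-fold for *Aldh1a1*, 1.84-fold for *Sox6* and 1.72-fold for *Lmo3*. VTA over SNc it was 0.732 for *Aldh1a7* and 0.668 for *Sox6*. The groups did not overlap in any of these 7 comparisons, and the two-sided exact permutation p was 0.1 in each, which is the smallest that 3 libraries against 3 can give, so none of the 15 tests on full-length ratios could pass 0.05. Of the members, *Aldh1a7* and *Sox6* were those whose VTA values per core count all lay below the SNc values in these libraries. Their own levels were not called between VTA and SNc IPs, with log2 fold changes of 0.007 and -0.14. Some core genes, among them *Th*, were higher in the VTA IPs, as given below, which lowers a ratio to them.

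**Figure D3:**
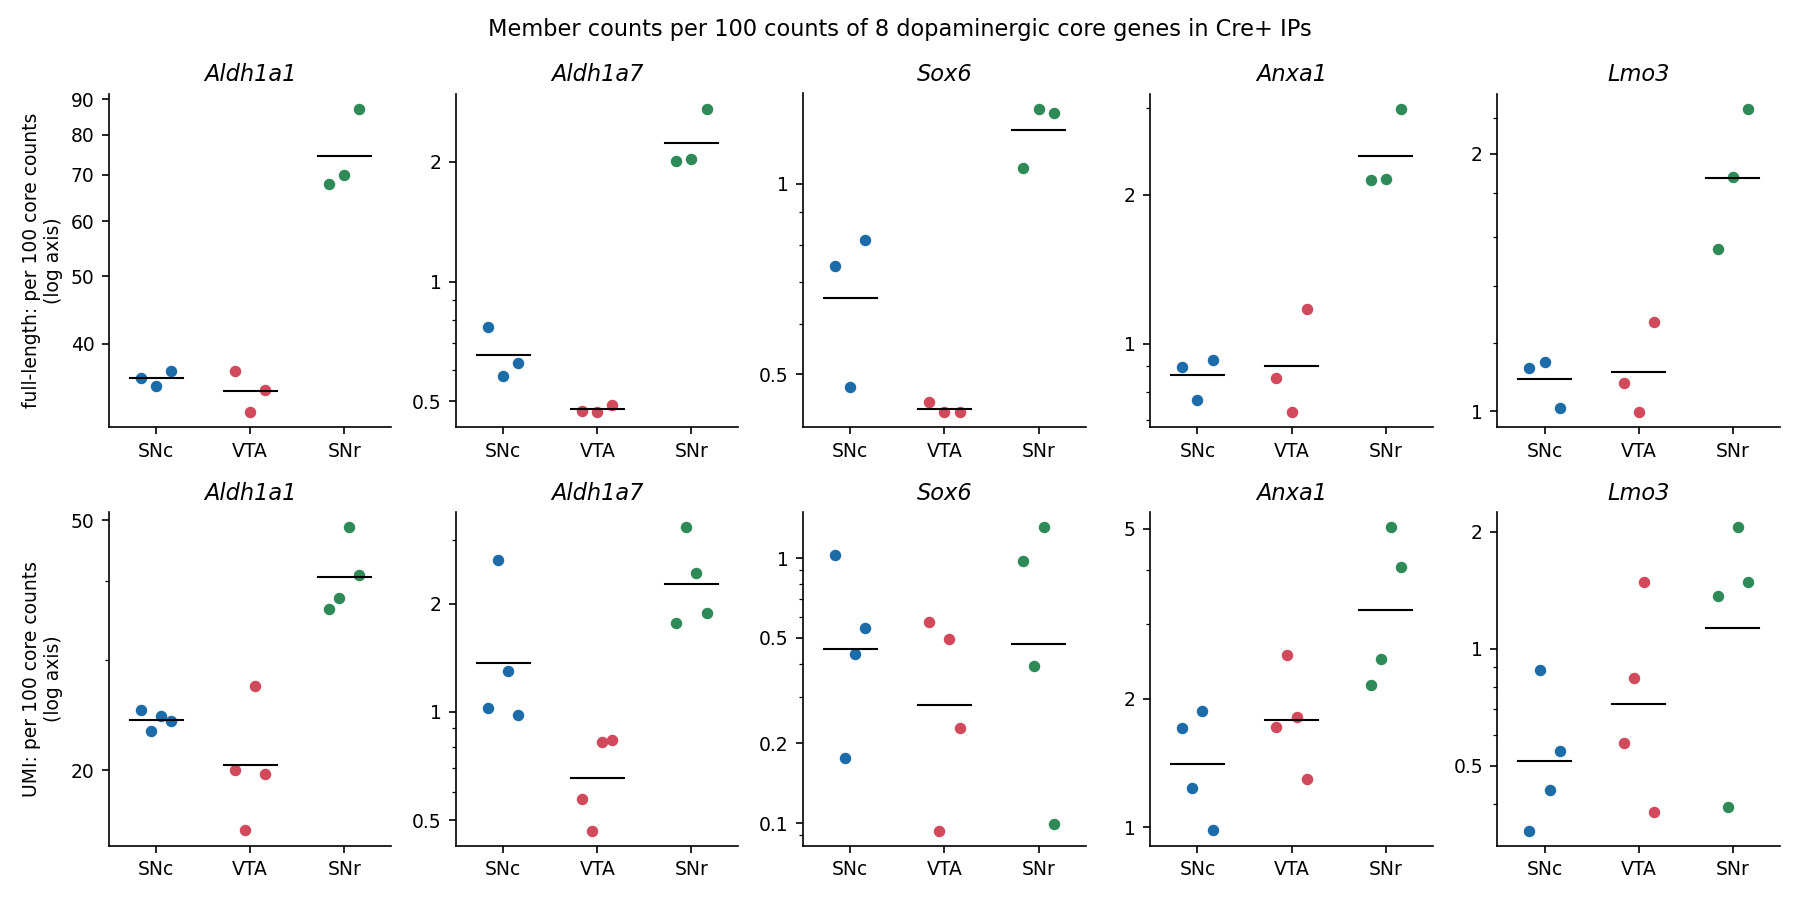
Counts of each gene per 100 counts of the 8 dopaminergic core genes in each Cre+ IP (log axes), with a line at the geometric mean, for full-length libraries (top, 3 per region) and UMI libraries (bottom, 4 per region; 0.5 was added to each count, so a library without a count is drawn above 0). In the full-length libraries every SNr point lies above every SNc and VTA point in all 5 panels, and the UMI libraries show the same separation for *Aldh1a1* (1.69-fold over SNc).

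In the full-length IPs, the core genes themselves did not follow the members from SNc to SNr. *Th*, which encodes tyrosine hydroxylase, stood at 2484, 1284 and 1554 CPM in the SNc IPs, 3478, 3891 and 3472 in the VTA IPs and 2638, 2528 and 1787 in the SNr IPs. *Slc6a3*, the dopamine transporter gene, was at 2867 to 3104, 2508 to 2916 and 2195 to 3005. None of the 8 was called between SNr and SNc IPs with edgeR, and 1 (*En1*) had an unadjusted p under 0.05 (median log2 fold change -0.20 against 0.04 over all genes). In the VTA 4 of 8 were higher than in the SNc, among them *Th* by 1.02 ± 0.20 (adjusted p = 0.00266, edgeR) and *Gch1*, which makes the cofactor of tyrosine hydroxylase, by 1.14 ± 0.26 (0.00942).

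The tissue itself gave another picture, since SNr and SNc Inputs held similar levels of *Aldh1a1*. The difference was 0.00 on the log2 scale, with a 95% interval of -0.13 to 0.13. VTA Input held more than SNc Input (0.43 ± 0.07, adjusted p = 6.25e-05, edgeR), and SNr Input less than VTA Input (-0.43 ± 0.07, 7.96e-06). *Lmo3* was higher in SNr Input than in SNc Input (0.78 ± 0.13, adjusted p = 2.35e-05) and VTA Input (0.70 ± 0.13, 0.000113), where the difference between the SNr and SNc IPs was 0.81. The other 3 genes were not called in any pair of Inputs. Of the 5 genes, 1 was called between VTA and SNc (background 5.22%), 1 between SNr and SNc (28%) and 2 between SNr and VTA (28.3%). The *Aldh1a1* difference between VTA and SNc Inputs kept its size but missed the threshold when all 18 libraries shared 1 estimate of the spread (0.43, adjusted p = 0.185).

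The core genes stood lower in SNr Input than in SNc Input, unlike *Aldh1a1*. *Slc6a3* was at 163 to 182 CPM in the 3 SNc Inputs and at 27.6 to 68.7 in the 3 SNr Inputs, and *Th* at 97.3 to 128 and at 19.1 to 43.5. Per 100 core counts, pooled *Aldh1a1* was accordingly 46.0 in SNc Input, 39.9 in VTA Input and 160 in SNr Input. *Sox6* was at 4.71, 2.97 and 20.0, and *Lmo3* at 4.11, 2.66 and 25.7. Both genes thus stood far higher against the core genes in Input than in IP of every region, while *Aldh1a1* did so mainly in the SNr.

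Enrichment, the IP over Input ratio, was compared between regions in 1 model of all 18 libraries. It was greater in the SNr than in the SNc for *Aldh1a1* (difference 1.03 ± 0.17, adjusted p = 0.00056) and *Aldh1a7* (1.86 ± 0.33, 0.00102, edgeR), and greater than in the VTA by 1.06 ± 0.17 (0.00034) and 1.85 ± 0.33 (0.00112). *Sox6*, *Anxa1* and *Lmo3* were not called in either pair, with differences of 0.56, 0.47 and -0.02 for SNr minus SNc (adjusted p = 0.297, 0.608 and 0.989) and of 0.68, 0.94 and -0.42 for SNr minus VTA (0.189, 0.18 and 0.344). In the latter pair *Sox6* and *Anxa1* had an unadjusted p under 0.05, and *Anxa1* was called when genes of low count were kept (0.92, adjusted p = 0.0465) and without the first SNr Input (1.53, 0.0208). None of the 5 was called for VTA minus SNc, where the least adjusted p was 0.400, for *Lmo3*, and none had an unadjusted p under 0.05. These counts of 2, 2 and 0 stand against 7.28%, 5.98% and 6.72% of all genes called. Greater enrichment in the SNr was not particular to the members. The median enrichment of the dopaminergic core genes, given above, was also greatest there.

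The paralogs also differed in their balance. For every 100 counts of *Aldh1a1* there were 1.67 to 2.16 of *Aldh1a7* in the SNc IPs, 1.30 to 1.47 in the VTA IPs and 2.91 to 3.12 in the SNr IPs, with no overlap between the 3 regions. The Inputs held 1.18 to 1.33 in the SNc, 0.83 to 0.94 in the VTA and 0.933 to 1.42 in the SNr. *Aldh1a7* was thus the scarcer of the pair in every full-length library, and its share was greatest in the SNr IPs. The Cre+ UMI IPs did not show a greater share in SNr than SNc. Pooled values there were 5.44 in the SNc, 2.87 in the VTA and 5.42 in the SNr, on 16, 10 and 31 *Aldh1a7* UMIs. Single libraries of the SNc (2.78 to 10.77) and SNr (4.35 to 8.33) overlapped. The part of reads that fit both paralogs in these shares was not tested.

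Among other aldehyde dehydrogenases, the pattern of *Aldh1a1* and *Aldh1a7* was not general. None of 14 tested genes was higher in IP than in Input of the SNc, and 2 were in the VTA and 2 in the SNr, with medians of -0.03, -0.31 and -0.18. *Aldh18a1*, a mitochondrial enzyme of proline synthesis, was higher in the VTA IP (1.29 ± 0.15) and SNr IP (0.94 ± 0.27), while the astrocytic *Aldh1l1* was lower in the VTA IP (-2.75 ± 0.22, adjusted p = 4.85e-08, edgeR). Between SNr and SNc IPs 0 of 14 were called with edgeR, and 2 (*Aldh1b1* and *Aldh2*) had an unadjusted p under 0.05. Between SNr and VTA 4 were higher, among them *Aldh1l1* (2.64 ± 0.32) and *Aldh2* (0.83 ± 0.21).

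Of the retinoid pathway, which produces, binds and degrades retinoic acid, 18 of 26 genes were tested and none was called between SNr and SNc IPs with edgeR, where 5 had an unadjusted p under 0.05. *Cyp26b1*, which degrades retinoic acid, was higher in VTA than SNc IPs (2.02 ± 0.47, adjusted p = 0.0103) and lower in SNr than VTA IPs (-3.58 ± 0.53, 0.000159, edgeR). The receptor gene *Rxra* was lower in IP than Input in all 3 regions (-1.24, -1.51 and -1.95). Of 6 genes of dopamine breakdown, 1 was called between VTA and SNc IPs. This gene, *Maoa*, which oxidizes dopamine to the aldehyde that ALDH1A1 clears, was enriched in the IPs of all 3 regions (0.82, 1.30 and 0.62) and higher in VTA than SNc (1.04 ± 0.21, 0.00369).

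No other SOX gene tested was called higher in IP than in Input. Of 12, 13 and 12 tested in SNc, VTA and SNr, 0 were higher and 8, 9 and 9 were lower in IP than in Input, among them the glial factors *Sox10* (-1.35, -3.45 and -2.24) and *Sox8* (-1.29, -3.74 and -1.87). Medians were -1.32, -3.45 and -1.67. None of 13 was called between SNr and SNc IPs with edgeR, and 1 (*Sox13*) had an unadjusted p under 0.05. Against the VTA IPs, 5 of 13 were higher in the SNr (median 2.06), where *Sox6* was higher by 1.01. Among them were the glial factors *Sox9* (3.18 ± 0.39, adjusted p = 2.98e-05), *Sox8* (2.58 ± 0.32, 3.11e-05) and *Sox10* (1.98 ± 0.31, 0.000323, edgeR), and the astrocyte markers summed higher in these SNr IPs too, as given above. Their part in the *Sox6* difference was not tested.

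Other annexins were enriched less than *Anxa1*. *Anxa7* was higher in IP than Input by 0.99 ± 0.23, 1.54 ± 0.12 and 1.47 ± 0.25 in SNc, VTA and SNr, and *Anxa5* by 0.88 ± 0.15 and 0.51 ± 0.10 in SNc and VTA. Between SNr and SNc IPs 1 of 7 was called, *Anxa2* (2.51 ± 0.69, adjusted p = 0.0393, edgeR), a gene also expressed in vessels. *S100a10*, whose product pairs with annexin A2 and is related to the partner of annexin A1, was enriched in all 3 regions (2.49, 1.65 and 0.89) and was lower in SNr than VTA IPs (-0.91 ± 0.26, 0.0323).

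Of 11 LIM-only and LIM-domain factors related to *Lmo3*, *Lmo7* (1.87 ± 0.36, adjusted p = 0.00541) and *Lmx1b* (1.29 ± 0.29, 0.0135, edgeR) were higher in SNr than SNc IPs. *Lmx1b*, which specifies dopamine neurons, was also higher in VTA than SNc (1.42 ± 0.29), as was *Lmx1a* (1.6 ± 0.31). *Lmo4* was enriched in SNc and VTA IPs (1.57 ± 0.15 and 1.84 ± 0.13), close to the values of *Lmo3*.

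Of 15 other genes known from the ventral tier or SNc, *Satb1* (1.52 ± 0.24, adjusted p = 0.00117) and *Nwd2* (1.01 ± 0.27, 0.0322) were higher in SNr than SNc IPs and *Sncg* was lower (-0.79 ± 0.17, 0.0103, edgeR), with a median of 0.36 against 0.04 over all genes. *Satb1* was also higher in VTA than SNc (1.15 ± 0.24) and *Sncg* lower (-0.77 ± 0.17). Of 14 VTA and dorsal-tier genes, 6 were lower and 1 was higher in SNr than SNc IPs (median -1.48), among them *Slc17a6* (-3.20 ± 0.29), the vesicular glutamate transporter, *Tacr3* (-2.59 ± 0.25) and *Calb2* (-2.01 ± 0.18). Against the VTA IPs 10 of 14 were lower in the SNr, with *Calb1*, the calbindin gene that marks the dorsal tier, at -3.44 ± 0.19.

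Over the 9 full-length IPs and 7656 genes of at least median level, the profiles most like that of *Aldh1a1* by Pearson's r of log2 CPM were *Sh3pxd2a* (0.977), *Mn1* (0.976) and *Pitpnm2* (0.972). For *Aldh1a7* they were *Eef2* (0.958), *Nrip3* (0.955) and *Eno1* (0.954), for *Sox6* *Brinp1* (0.954), *Ctnnb1* (0.953) and *Lix1* (0.948), for *Anxa1* *Rnf150* (0.988), *Ptpn5* (0.979) and *Sh3pxd2a* (0.978), and for *Lmo3* *Satb1* (0.987), *Dnajc27* (0.982) and *Arrb1* (0.978). Among the members the likest pair was *Aldh1a1* and *Anxa1* (0.967) and the least like was *Sox6* and *Lmo3* (0.683). The 9 points fall into 3 regions and share library depth and glial content by region, so these values are a description.

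The UMI libraries of Cre- mice gave the background that the IP collects without tagged ribosomes. *Aldh1a1* ranged from 182 to 415 CPM in the 6 Cre- IPs of the SNc (median 274), from 58.2 to 385 in the VTA (median 213.5) and from 123 to 561 in the SNr (median 301). These are near the Cre- Input medians of 247, 174 and 204 CPM. The 4 Cre+ IPs held 1104, 1023, 1921 and 1173 CPM in the SNc, 1467, 1416, 1958 and 1870 in the VTA, and 2652, 2655, 2734 and 3392 in the SNr, which is 36 to 206 UMIs a library. No Cre+ IP overlapped a Cre- IP of its region. Cre+ over Cre- was 2.07 ± 0.28 in the SNc (adjusted p = 2.39e-11), 2.64 ± 0.28 in the VTA (4.55e-18) and 3.00 ± 0.30 in the SNr (4.70e-20, edgeR).

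*Anxa1* gave 2, 3, 6 and 4 UMIs in the Cre+ IPs of the SNc, 4, 13, 5 and 8 in the VTA and 5, 9, 13 and 20 in the SNr, against 0 to 3 in any Cre- IP and 0 in all 6 Cre- IPs of the SNr. Pooled over libraries, the Cre+ SNr level was at least 15.2-fold higher, with 3 UMIs over the group as the limit that a count of 0 allows. The difference was called in the SNr (adjusted p = 3.98e-09) and in the VTA (2.09 ± 0.61, 0.00875), and in the SNc it was 2.27 ± 0.84 (0.0641, edgeR). The VTA call was lost without the second Cre+ VTA library, which held the 13 UMIs (1.82, adjusted p = 0.0822).

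*Aldh1a7* gave 1, 7, 4 and 4 UMIs in the Cre+ IPs of the SNc, 1, 2, 2 and 5 in the VTA and 4, 12, 6 and 9 in the SNr, and 0 to 2 in any Cre- IP. In the SNr, where all Cre- IPs were at 0, it was at least 10.0-fold higher in Cre+ (adjusted p = 4.88e-06, edgeR). In the SNc and VTA it had log2 fold changes of 2.32 ± 0.82 (adjusted p = 0.0525) and 2.75 ± 1.07 (0.0772). *Sox6* and *Lmo3* were at the limit of these libraries, with 0 to 3 and 0 to 7 UMIs in a Cre+ IP. *Lmo3* had log2 fold changes of -0.15, 2.23 and 1.62 (adjusted p = 0.958, 0.117 and 0.205), and *Sox6* one of 0.28 in the SNr (0.917), since too few UMIs were left to test it in the SNc and VTA. *Lmo3* in the VTA (95% interval 0.36 to 4.09) and SNr (0.09 to 3.16) had an unadjusted p under 0.05. A difference of *Sox6* between genotypes was not detectable at this depth.

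Over the 3 regions together, with 12 Cre+ and 18 Cre- IPs, *Aldh1a1* (2.58 ± 0.19, adjusted p = 3.64e-29), *Aldh1a7* (3.28 ± 0.52, 5.73e-08) and *Anxa1* (2.96 ± 0.40, 2.85e-10) were higher in Cre+ mice. The IPs of different regions can come from the same mice and were counted as separate libraries, so these p-values may be too small. *Lmo3* was at 1.23 ± 0.49 (0.0621) and *Sox6* at 0.14 ± 0.58 (0.904, edgeR). With TMMwsp scaling *Lmo3* was called (1.51, adjusted p = 0.016), as were *Anxa1* (2.43, 0.0391) and *Aldh1a7* (2.49, 0.0293) within the SNc. In the fits as described, 3 of 5 genes were called over the regions, against 18.5% of all genes called and 6.04% higher. Within regions it was 1 of 4 tested in the SNc (9.18%), 2 of 4 in the VTA (11.1%) and 3 of 5 in the SNr (8.4%). Of the 8 core genes, 8, 7 and 7 were higher in SNc, VTA and SNr. Glial markers stood lower in Cre+ IPs, with astrocyte markers at 3802 to 8244 CPM in Cre- and 1383 to 2655 in Cre+ SNr IPs, and the median of all genes over the 3 regions was -0.29 on the log2 scale. Their part in the differences was not tested.

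**Figure D4:**
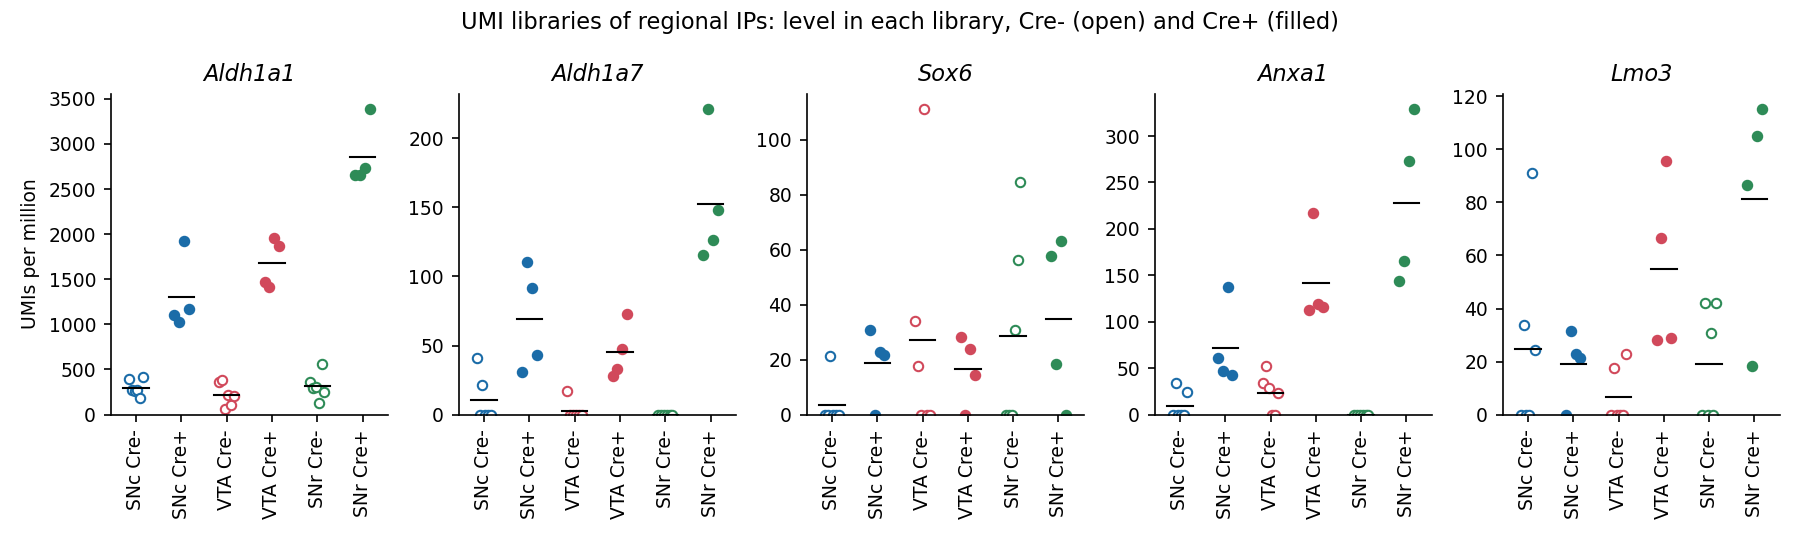
Level, in CPM of UMIs, of each gene in each UMI library of regional IPs, with open points for Cre- (6 per region), filled points for Cre+ (4 per region) and a line at the mean. *Aldh1a1* separates the genotypes in every region, *Anxa1* and *Aldh1a7* are at 0 in all Cre- SNr IPs, and *Sox6* and *Lmo3* overlap between genotypes.

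Between regions, the Cre+ UMI IPs placed the SNr highest again for *Aldh1a1* and *Anxa1*. SNr over SNc was 1.12 ± 0.23 for *Aldh1a1* (adjusted p = 0.000582) and 1.80 ± 0.44 for *Anxa1* (0.0107, edgeR), close to the full-length values of 1.10 and 1.49. *Aldh1a7* had a difference of 1.15 ± 0.50 (0.435), *Lmo3* one of 1.82 ± 0.74 (0.366) and *Sox6* one of 0.77 ± 0.98 (0.905). The *Anxa1* call was lost with DESeq2's Wald test (1.78, adjusted p = 0.258) and without any 1 of 4 single libraries (1.51 to 1.69). SNr over VTA, *Aldh1a1* was at 0.78 ± 0.23 (0.0509) and *Aldh1a7* at 1.68 ± 0.55 (0.103), and VTA over SNc *Aldh1a1* was at 0.35 ± 0.24 (0.708), with a 95% interval of -0.12 to 0.81. The counts of 2, 0 and 0 called genes for SNr over SNc, SNr over VTA and VTA over SNc stand against 0.67%, 1.5% and 1.06% of all genes. At an unadjusted p under 0.05, *Aldh1a1* and *Aldh1a7* passed for SNr over VTA and *Anxa1* for VTA over SNc, and DESeq2's Wald test called *Aldh1a1* for SNr over VTA (0.78, adjusted p = 0.0181).

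Relative to the core genes, *Aldh1a1* in the UMI IPs was 1.69-fold higher in SNr than SNc and 1.99-fold higher than in VTA, and *Anxa1* was 2.30-fold higher in SNr than SNc. *Aldh1a7* was 3.45-fold higher in SNr than VTA and 0.481-fold in VTA relative to SNc. The 2 groups of 4 did not overlap in any of these 5 comparisons, and each had a two-sided exact permutation p of 0.0286, the smallest possible, unadjusted among 15 tests. With *Th* alone in place of the 8 core genes, SNr over SNc fell to 0.18 on the log2 scale for *Aldh1a1* (exact permutation p = 0.229) and to 0.63 for *Anxa1* (0.229), while it was 0.75 and 1.20 with all 8. *Th* was itself at 976 to 2516 CPM in the Cre+ SNc IPs and at 2229 to 3211 in the SNr IPs of these libraries. The level of *Aldh1a7* itself was not called for VTA over SNc (-0.54 ± 0.62, adjusted p = 0.869, edgeR).

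The UMI Inputs, with 10 libraries per region over both genotypes, had 4 of the 5 genes with enough UMIs to test, and none was called in any pair of regions with edgeR. *Sox6* for VTA over SNc (-1.73 ± 0.71) and *Aldh1a7*, which was at 0 in all VTA Inputs, for VTA against either other region had an unadjusted p under 0.05. The backgrounds were 0.229% for VTA over SNc, 7.19% for SNr over SNc and 4.42% for SNr over VTA. *Aldh1a1* had a difference of -0.10 for VTA over SNc (95% interval -0.48 to 0.29), where the full-length value was 0.43. That interval is narrower than the unadjusted p of 0.767 (edgeR) implies, so it cannot decide whether the 2 library types differ. For SNr over SNc the *Aldh1a1* difference was -0.18 ± 0.19. *Anxa1* gave 0 or 1 UMI in each Input and was not tested.

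Midbrain synaptosomes gave the weakest separation on the CPM scale. *Aldh1a1* was at 311 to 577 CPM in the 12 Cre- Inputs (median 421) and at 221 to 641 in the 16 Cre+ Inputs (median 410.1). In the IPs it ranged from 472 to 1046 CPM in 6 Cre- libraries (median 773) and from 939 to 1518 in 8 Cre+ libraries (median 1262), so the groups overlapped. The Cre- IPs already lay above most Inputs, with 14 to 29 UMIs each. The Cre+ IPs held 40 to 155 *Aldh1a1* UMIs each, without overlap. They were also deeper, with a median of 80003 UMIs in all against 19421 in the Cre- IPs. The study reports this greater yield of Cre+ IPs, and CPM scales it out. The genotype:fraction term, which asks whether IP over Input differs with Cre, was 0.82 ± 0.23 (95% interval 0.37 to 1.27, adjusted p = 0.0508), and Cre+ over Cre- IP was 0.68 ± 0.21 (0.131, edgeR). Both were called with TMMwsp scaling (1.10, adjusted p = 0.00217, and 0.99, 0.0111) and with DESeq2's Wald test (0.85, 0.00512, and 0.71, 0.0154), so the calls depend on the method. There are 2 Input libraries for each IP, and if a pair comes from 1 mouse, which the labels do not say, the p of the genotype:fraction term is too small.

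The other 4 genes were sparse in synaptosomes, and their UMI counts are set between Cre+ IPs and the shallower Cre- IPs. *Lmo3* gave 2 to 8 UMIs in the Cre+ IPs and 0 to 1 in the Cre- IPs (1.71 ± 0.73, adjusted p = 0.339), *Anxa1* 0 to 9 and 0 to 2 (0.82 ± 0.82, 0.757), *Aldh1a7* 0 to 5 and 0 to 2 (1.37 ± 0.97, 0.624) and *Sox6* 0 to 6 and 0 to 4 (-0.01, 95% interval -2.45 to 2.44, all edgeR). With edgeR and the size factors used throughout, no member was called, against 1.03% of all genes for the genotype:fraction term and 1.11% between IPs. At an unadjusted p under 0.05, *Aldh1a1* and *Aldh1a7* passed for the first and *Aldh1a1* and *Lmo3* for the second.

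Of the core genes in these IPs, *Slc6a3* separated the genotypes in CPM and *Th* did not. By qRT-PCR, the study reports a greater yield of both mRNAs in Cre+ than Cre- synaptosome IPs. It also reports greater enrichment of both over Input in Cre+ mice. CPM does not measure yield. *Slc6a3* ranged from 182 to 472 CPM in Cre- and from 567 to 1292 in Cre+ IPs. *Th* ranged from 1857 to 3508 and from 1970 to 4476, and in striatal synaptosome IPs, which came from another plate, *Th* was at medians of 2124 CPM in Cre- and 2178 in Cre+. The part of this background in the *Aldh1a1* values was not tested. Oligodendrocyte markers summed to 4054 to 5379 CPM in the Cre- and 1136 to 2651 in the Cre+ midbrain synaptosome IPs.

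**Figure D5:**
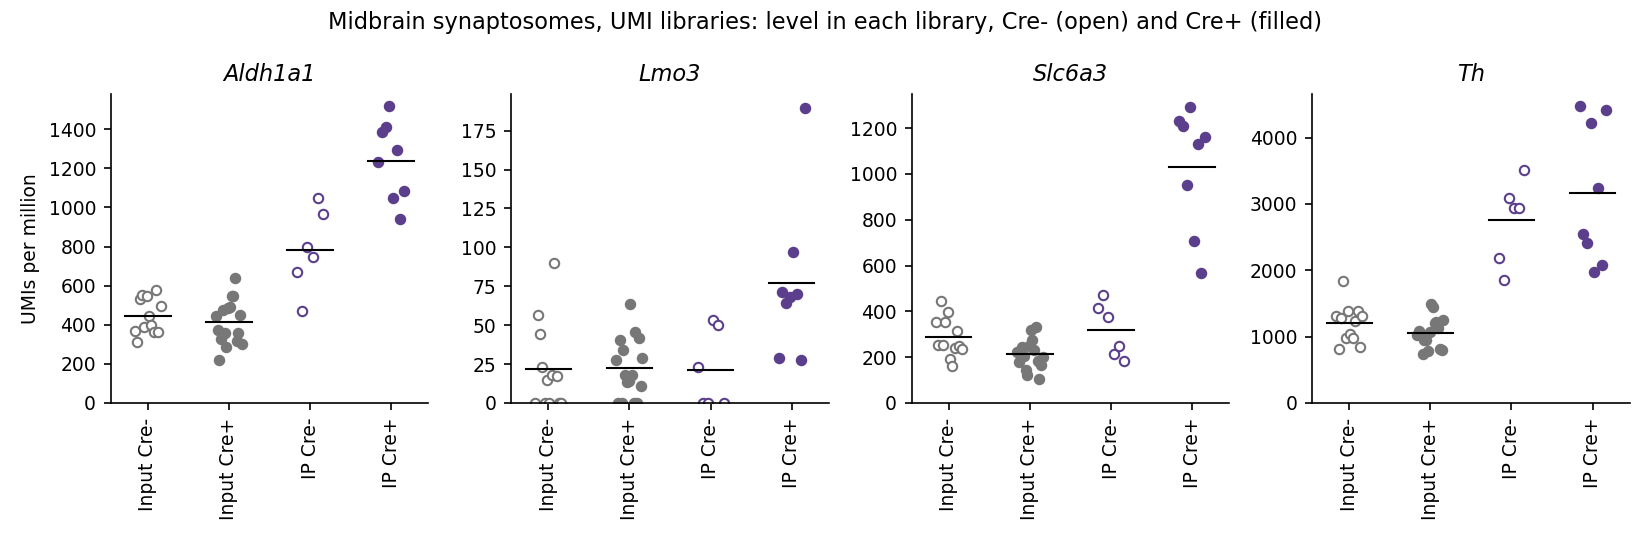
Level, in CPM of UMIs, of *Aldh1a1*, *Lmo3*, *Slc6a3* and *Th* in each midbrain synaptosome library, with Inputs in grey, IPs in purple, open points for Cre- and filled points for Cre+, and a line at the mean. *Slc6a3* IPs of Cre+ mice (567 to 1292) lie above all Cre- IPs, *Aldh1a1* overlaps between genotypes (472 to 1046 against 939 to 1518), and *Th* overlaps almost fully.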

How the data were processed

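Both tables held counts per gene, as deposited, with 1 column per library. Per the labels and the study's methods, the authors removed ribosomal RNA reads with Bowtie2, aligned to GRCm38 with STAR and counted unique exonic reads with featureCounts (full-length), or trimmed poly(A), aligned and collapsed UMIs (3′ libraries). The strand setting is not given in the sources used here. UMI entries without an Ensembl identifier held 0.000205% of counts and were left out.

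Here, genes were tested with edgeR 4.0.16 (R 4.3.3), using glmQLFit and glmQLFTest and Benjamini-Hochberg adjustment over all genes tested, with a threshold of 0.05. Full-length counts were filtered with filterByExpr and scaled by TMM, and UMI fits kept genes with at least 10 UMIs and used the size factors of DESeq2 1.42.0. CPM is of total counts, and RPKM uses the merged length of all annotated exons in GENCODE vM21. SE is the log2 fold change over the root of the F statistic, and intervals are at 95%. The method was tested on simulated data. Ratios to the core genes, with 0.5 added to both counts, were compared by two-sided exact permutation tests (SciPy 1.17.1). Intervals rest on the fitted spread between libraries, and limits on a count of 0 (3 UMIs) cover counting error only. Neither accounts for libraries that share a mouse.

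Groups came from the labels. The members and gene lists were chosen with earlier results of these data known. Of each list, up to 3 genes per comparison with the smallest p were eligible to be named, and the 3 genes of highest Pearson's r to each member. Alternatives were other scaling, DESeq2's Wald test, no filter, 1 fit of all 18 full-length libraries, other core genes, and leaving out each library. A fit without 2 VTA Inputs under 10000 UMIs was added after seeing the data. Other ages and regions were not analysed here, except where striatum is named.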

Additional observations from a re-analysis of the deposited data

Results flagged for a closer look

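The greater enrichment of *Aldh1a1* and *Aldh1a7* in the SNr is listed because a test of the difference itself, the interaction of region and fraction, passed. The log2 differences were 1.027 and 1.859 for SNr minus SNc, and 1.057 and 1.849 for SNr minus VTA. The median enrichment of the dopaminergic core genes was also greatest in the SNr, as given in the Results.

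In 14 of 61 groups of 4 to 10 libraries, the highest library lay apart from the rest by more of the group's range than Dixon's 95% limit allows. For continuous values chance alone marks about 1 group in 20. A group of sparse counts with a single library above 0 always exceeds the limit, so the 14 cannot be set against that rate. Well counted among these were *Aldh1a1* in the third Cre+ SNc IP (1921 CPM, 84 UMIs), *Aldh1a1* in the fourth Cre+ SNr IP (3392 CPM, 206 UMIs) and *Anxa1* in the second Cre+ VTA IP (216.6 CPM, 13 UMIs).

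The other 11 rested on 1 to 7 UMIs. *Aldh1a7* was apart in a Cre- VTA IP (17.1 CPM) and a Cre- synaptosome IP (46.14). *Sox6* was apart in Cre- IPs of the SNc (21.43), the VTA (111.2) and synaptosomes (213.2). *Anxa1* was apart in a Cre+ SNr Input (18.55), a Cre- VTA Input (11.04) and a Cre- SNr Input (10.24), and *Lmo3* in a Cre- SNc IP (91.04), a Cre- VTA Input (32.54) and a Cre+ synaptosome IP (189.4).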

How the results depend on the processing

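No paired analysis was possible because the labels carry no replicate numbers.

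With all 18 full-length libraries in 1 fit, genes called were 3155 for VTA over SNc IPs, 2570 for SNr over SNc IPs, 4188 for SNr over VTA IPs, and 78, 1197 and 1339 for the same pairs of Inputs (1309, 781, 1617, 827, 4443 and 4478 otherwise). With DESeq2's Wald test they were 1220 for SNr over SNc IPs, 1558 for enrichment in SNr minus VTA, 401, 394 and 277 for Cre+ over Cre- UMI IPs of SNc, VTA and SNr, 23, 11 and 36 between UMI IPs for VTA over SNc, SNr over SNc and SNr over VTA, and 13 between VTA and SNc UMI Inputs. Without a filter they were 308 for Cre+ over Cre- SNr IPs and 253 for synaptosome IPs, and with TMMwsp 375 between SNr and VTA UMI Inputs.

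Differences near 0 turned sign. *Aldh1a7*, VTA over SNc IP, was -0.038 with 18 libraries. *Aldh1a1*, SNr over SNc Input, was -0.003242 with size factors, -0.003645 with the Wald test and -0.003343 without a filter. *Aldh1a1* enrichment in VTA minus SNc was 0.031 without a filter, and *Lmo3* enrichment in SNr minus SNc was 0.042 with size factors, 0.042 with the Wald test and 0.015 without a filter. In UMI data, *Lmo3* in the SNc by genotype was 0.030 with TMMwsp, *Aldh1a7* in SNr over SNc Input -0.043 without a filter, *Aldh1a1* in SNr over VTA Input 0.015 with TMMwsp, and *Sox6* in synaptosome IPs 0.26 with TMMwsp.

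Against other core genes, VTA over SNc was 0.10 for *Aldh1a1* without *Th*, and with *Th* alone -0.50 for *Anxa1* and -0.54 for *Lmo3*. In UMI libraries with *Th* alone, SNr over SNc was 0.18 for *Aldh1a1*, -0.52 for *Sox6* and 0.63 for *Anxa1*, and VTA over SNc -0.10 for *Anxa1*.

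Leaving out 1 library at a time, genes called ranged from 2636 to 5649 for SNr IP over Input, 580 to 1963 for VTA over SNc IPs, 307 to 1098 for SNr over SNc IPs, 906 to 1733 for SNr over VTA IPs, 489 to 842 for VTA over SNc Inputs, 722 to 2270, 713 to 2019 and 674 to 1431 for enrichment in VTA minus SNc, SNr minus SNc and SNr minus VTA, 310 to 501 for Cre+ over Cre- SNr IPs, and 38 to 133, 26 to 59 and 58 to 120 between UMI IPs. Ratios to the core genes ranged, for VTA over SNc, from -0.131 to 0.2158 for *Anxa1* and -0.07057 to 0.1039 for *Lmo3*. In UMI libraries they ranged from 0.6668 to 0.8102 (*Aldh1a1*), 0.9895 to 1.399 (*Anxa1*) and -0.4362 to 0.8046 (*Sox6*) for SNr over SNc, 0.8799 to 1.136 (*Aldh1a1*) and 1.611 to 1.907 (*Aldh1a7*) for SNr over VTA, and -1.213 to -0.7369 (*Aldh1a7*) for VTA over SNc. With 3 libraries against 4 the exact test cannot pass 0.05.

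Sign also turned, leaving out 1 library, for VTA over SNc IP in *Sox6* (-0.3905 to 0.1518) and *Aldh1a7* (-0.1532 to 0.383), for VTA over SNc Input in *Lmo3* (-0.06689 to 0.1799), *Sox6* (-0.1165 to 0.01151) and *Aldh1a7* (-0.215 to 0.0104), for SNr over SNc Input in *Aldh1a1* (-0.0432 to 0.03904), for SNr over VTA Input in *Anxa1* (-0.6415 to 0.1905) and *Aldh1a7* (-0.3504 to 0.03624), for enrichment in VTA minus SNc in *Sox6* (-0.4033 to 0.1643), *Aldh1a1* (-0.1609 to 0.1742) and *Aldh1a7* (-0.1843 to 0.3783), for enrichment in SNr minus SNc in *Lmo3* (-0.138 to 0.1946), for genotype in *Lmo3* of the SNc (-0.4354 to 0.09848) and *Sox6* of the SNr (-0.1495 to 0.7868), and for UMI VTA over SNc IPs in *Sox6* (-0.6546 to 0.2252). None of these was called.

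Among single genes, 345 other comparisons under another setting kept direction and call, 15 gained a call and 4 lost one. SNr over SNc in full-length IPs kept its call for *Aldh1a1*, *Aldh1a7* and *Anxa1* under every alternative run. The causes of these changes were not tested. Depth limits *Sox6* and *Lmo3* in the UMI libraries.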

Other observations

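In striatum, which holds the axons of these neurons and no dopaminergic somata, *Aldh1a1* gave 12 UMIs in 6 Cre- IPs (47.7 CPM pooled) and 7 in 4 Cre+ IPs (53.3 CPM), and *Aldh1a7* gave none in either. These libraries entered no comparison.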
